A study of Mus musculus with 18 samples.

Results

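Beneath and between its epithelial glands the stomach mucosa holds connective tissue cells, blood vessels and immune cells, and 78 of the 4484 single cells kept in this mouse stomach series lay in 6 clusters of such cells. They were chosen by the authors' cluster numbers, which are 11, 12, 13 and 16 in dataset 1 and 18 and 19 in dataset 2. Dataset 1 held 56 of them among 491 kept cells, with 18 cells in cluster 11, 15 in cluster 12, 15 in cluster 13 and 8 in cluster 16. Dataset 2 held 22 among 3993, with 13 in cluster 18 and 9 in cluster 19. For comparison, 308 cells of dataset 1 and 3826 of dataset 2 belonged to epithelial types, namely pit, neck, isthmus and parietal cells in both and chief cells in dataset 2.

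All animals were untreated wild-type C57BL/6J males, 10 weeks of age, so the design held no treatment and no mutant. Each dataset came from 2 pools of 3 mice, named tube1 and tube2 in dataset 1 and K and T in dataset 2, and the pool was taken as the replicate (n = 2 throughout). The pools of a dataset were prepared by different operators, so mice and operator cannot be told apart. Dataset 1 used glands of the corpus, which makes acid and pepsinogen, and of the antrum, which leads to the duodenum, treated with pronase and then collagenase. Dataset 2 used corpus glands only, with the enzymes in the reverse order and a sort for Hoechst-stained cells. In both, the muscle layer was pulled off with forceps before the cells were dissociated. Single cells were sorted into 384-well plates and sequenced by Quartz-Seq2, which counts each captured transcript by a unique molecular identifier (UMI).

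Fibroblasts build the collagen scaffold of the mucosa and send BMP and Wnt signals to the glands above them, while smooth muscle cells and pericytes, which wrap small vessels, carry a contractile apparatus. Endothelial cells line the vessels, respond to VEGF and display the receptors and junction proteins that let fluid and leukocytes pass. Macrophages of the gut wall take up debris, make complement C1q and present antigen on MHC class II, alongside dendritic cells and lymphoid cells.

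Each cluster was checked against *Pdgfra*, *Acta2*, *Pecam1* and *Ptprc*. *Ptprc* (CD45, the surface phosphatase of leukocytes) had UMIs in 8 of 8 cells of cluster 16 and 13 of 13 of cluster 18, and *Pecam1*, an endothelial adhesion protein, in 15 of 15 of cluster 13 and 9 of 9 of cluster 19. *Pdgfra*, a growth factor receptor of fibroblasts, had UMIs in 15 of 15 cells of cluster 12 and in 0 of 18 of cluster 11, and *Acta2*, smooth muscle actin, in 16 of 18 of cluster 11. Accordingly the clusters are called *Acta2*+ stromal-like (11), *Pdgfra*+ stromal-like (12), endothelial-like (13 and 19) and leukocyte-like (16 and 18). An earlier annotation in the dataset 1 table had named 4 cells of cluster 11 and 6 of cluster 12 mesenchymal, 4 of cluster 13 endothelial and 5 of cluster 16 lymphocytes, and held no name for the others. Beside the last of these names, 7 of 7 macrophage markers were detected in clusters 16 and 18, with 3044 and 3421 UMIs in all. Of 6 T cell markers cluster 16 held *Cd4* alone, with 39 UMIs, and cluster 18 held *Cd4* and 9 UMIs of *Lck*, with *Cd3e*, *Cd3d*, *Cd3g* and *Cd8a* at 0 in both. Of the 5 B and plasma cell markers in the files only *Cd79b* was detected, with 0 and 4 UMIs in the pools of cluster 16 and 3 and 2 in those of cluster 18. *Cd7*, a lymphoid surface protein, had 4 UMIs in 1 cell of cluster 16 and 9 in 1 cell of cluster 18.

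**Figure D1:**
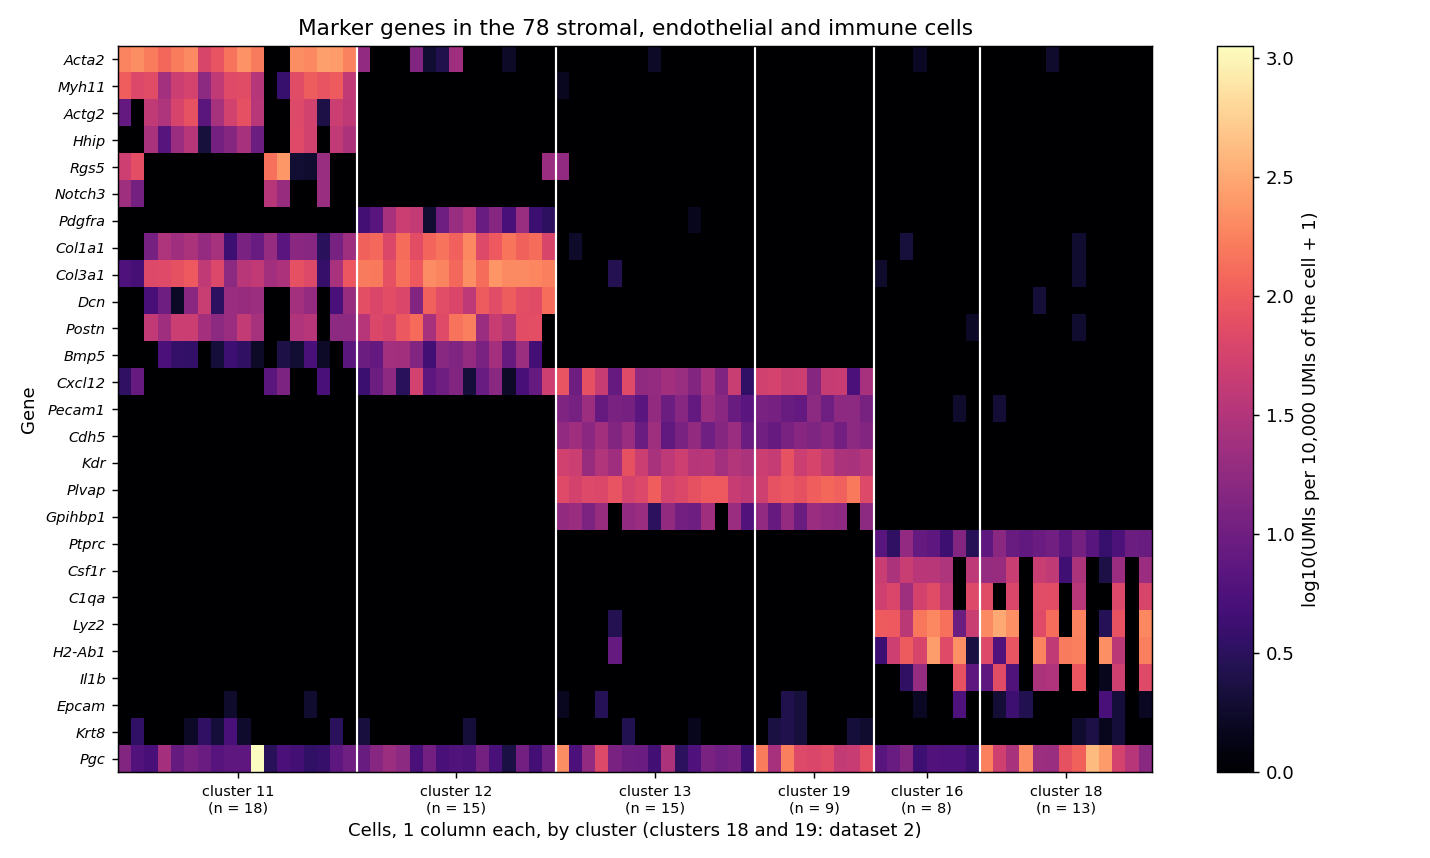
Marker genes (vertical axis) in each of the 78 cells (horizontal axis, grouped by cluster), as log10 of UMIs per 10000 UMIs of the cell plus 1. *Acta2* to *Hhip* had UMIs in 13 to 17 of 18 cells of cluster 11 and *Notch3* in 5, *Pdgfra* to *Bmp5* in 14 or 15 of 15 of cluster 12, *Pecam1* to *Gpihbp1* in 13 to 15 of 15 of cluster 13 and 8 or 9 of 9 of cluster 19, *Ptprc* to *Il1b* in 4 to 8 of 8 of cluster 16 and 7 to 13 of 13 of cluster 18, and the pepsinogen transcript *Pgc* in every cell.

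These cells were shallow beside the epithelium. They held 4881 to 24105 UMIs and 2532 to 6048 detected genes each, and their cluster medians were between 0.21 and 0.35 times the median of the kept cells on the same plate. Cell barcodes were those of the wells and were reused between plates, so that the 78 cells held 76 barcodes, 2 of which occurred on more than 1 plate. Transcripts of secretory epithelial cells were present throughout, with *Pgc* UMIs in every cell of the 6 clusters. Levels are given in CPM, which are UMIs per 1000000 UMIs after the scaling described below. *Pgc* was at 822 and 11468 CPM in the 2 pools of cluster 11 and 7113 and 13222 in cluster 18. In the epithelium it was at 21448 and 20209.9 CPM in dataset 1 and 86199.8 and 84325 in dataset 2. In cluster 11 a single cell held 1557 of the 1615 *Pgc* UMIs of tube2. Of the 4 defining epithelial genes *Epcam*, *Cdh1*, *Krt8* and *Krt18*, 2 or more were detected in 3 cells of cluster 11, 0 of cluster 12, 1 each of clusters 13 and 16, 5 of cluster 18 and 3 of cluster 19. Results were also computed without those cells, and the values are given where they changed a call.

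Member cells made up 11.4% of kept cells in dataset 1 (95% Wilson interval 8.89 to 14.5%), with 8.82% in tube1 and 13.2% in tube2. In dataset 2 they made up 0.551% (0.364 to 0.833%), with 0.615% in K and 0.489% in T. Plates ranged from 5.68 to 18.6% in dataset 1 and from 0 to 1.16% in dataset 2. No stromal-like cluster was found among the kept cells of dataset 2. With both datasets combined and a lower minimum of detected genes, the paper reports stromal cells in both. Tissue region, enzyme order and sort differed between the datasets, so their parts in the gap between the shares of kept cells cannot be told apart.

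For every cluster the UMIs of its cells in a pool were added up and tested with edgeR's quasi-likelihood test, with Benjamini-Hochberg adjustment over all genes tested and a threshold of 0.05. The authors made the clusters from the same counts, so a call describes how far apart clusters lie against the spread between pools. Against the mean of the epithelial types, 17.5% of 12053 genes were called higher and 16.8% lower in cluster 11, 17.4 and 16.4% in cluster 12, 14.1 and 15.9% in cluster 13 and 9.89 and 14.5% in cluster 16. Against the mean of the other 3 clusters of dataset 1 the shares were 8.43 and 1.54% in cluster 11, 7.35 and 1.11% in cluster 12, 6.99 and 1.92% in cluster 13 and 6.56 and 4.63% in cluster 16. That mean was taken on the log2 scale, so a gene at 0 in the cluster and in another cluster could miss a lower call. *Col1a2*, with 0 UMIs in cluster 16 and 2431 in the other 3 clusters, missed the threshold. The higher and lower shares against the other 3 clusters can thus not be weighed against each other. Of 12891 genes in dataset 2, 10.4% were called higher and 12.5% lower in cluster 18 than in the mean of the epithelial types, and 7.4 and 12.1% in cluster 19. In the 6 comparisons with the epithelium higher genes were thus 38.0 to 51.4% of the calls, but 53.8 to 61.6% with DESeq2's size factors and 62.1 to 72.5% with DESeq2 itself. In these 6 comparisons the size factors moved the median of all genes by 0.17 to 0.38 on the log2 scale. The differences given below are relative to edgeR's TMM scaling. With a single pool sum left in a cluster the calls fell, for example from 4131 to 2260 in cluster 11 and from 3605 to 1740 in cluster 13, in both cases without tube2.

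The stromal-like clusters of dataset 1 divided into a contractile and a collagen-producing population. *Acta2* reached 13597 and 14792 CPM in the pools of cluster 11 and 727 and 388 in cluster 12, a log2 difference of 4.74 ± 0.30 (SE). *Tagln* and *Myl9*, which encode an actin-binding protein and the regulatory myosin light chain of smooth muscle, differed by 8.20 ± 0.34 and 5.53 ± 0.25. The pools of the 2 clusters did not overlap for any of these 3 genes. With 2 pools per cluster this adds little to the test, and the share of all genes without overlap was not computed. *Myh11*, the smooth muscle myosin heavy chain, had 370 and 714 UMIs in cluster 11 and 0 in cluster 12, at least 363-fold higher against a floor of 3 UMIs over the group. *Actg2*, the actin of visceral muscle, had 274 and 454 UMIs against 0, at least 243-fold higher. All 12 genes of the contractile list were called higher in cluster 11 than in cluster 12, with a median log2 difference of 5.98 (5.51 with genes at 0 set to their bound), where 2.84% of all genes were higher, 2.79% were lower and the median was 0.

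A CArG box, the short element bound by serum response factor at smooth muscle genes, was searched on both strands from 250 bases before to 50 after each gene start of the RefSeq promoters (GRCm38.p6). It was present in 1.63% of 32851 promoters and in 1 of the 9 contractile genes that had a promoter entry, *Myl9*. The window is shown because *Myl9* was among the genes that most separated cluster 11 from the epithelium. It lies on the plus strand at chr2:156775258-156775357, before the gene start, and the capitals mark the match, whose first base is 161 bases before the start.

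Myl9: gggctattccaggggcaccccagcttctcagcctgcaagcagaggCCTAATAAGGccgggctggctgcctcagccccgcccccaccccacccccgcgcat

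The match describes the letters of this window, and binding was not measured.

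Cluster 12 carried the collagen program. *Col1a1*, the main fibrillar collagen chain, reached 7784 and 10657 CPM in its pools and 1338 and 1037 in cluster 11, a log2 difference of -2.98 ± 0.21 for cluster 11 minus cluster 12. *Col3a1*, its partner in soft tissue, differed by -1.66 ± 0.23, *Dcn* (decorin, a collagen-binding proteoglycan) by -2.63 ± 0.28 (-3.75 without the tube2 sum of cluster 11) and *Fn1* (fibronectin) by -5.85 ± 0.29 (-6.51 without its tube1 sum and -5.11 without tube2). Every one of the 9 genes of the fibrillar list was called lower in cluster 11, with a median of -2.81 against 0 over all genes. Cluster 11 was not without collagen, since the same 9 genes were called higher there than in the epithelium, with a median log2 difference of 10.79 against -0.28 over all genes. *Col4a1*, a basement membrane collagen, did not separate the clusters (0.14 ± 0.20, edgeR adjusted p = 0.847). All 11 basement membrane genes were called higher than in the epithelium in clusters 11 and 12, 8 of 11 in cluster 13, and 8 of the 9 tested in dataset 2 in cluster 19. Over all genes the shares were 17.5, 17.4, 14.1 and 7.4% in clusters 11, 12, 13 and 19. *Mgp*, an inhibitor of calcification, was at 1367 and 1945 CPM in the pools of cluster 12 and at 0 in cluster 11, at least 129-fold lower. *Pdgfra* was at 2266 and 1029 CPM in cluster 12 and at 0 in cluster 11, at least 109.6-fold lower. *Barx1* and *Foxf1*, transcription factors of the stomach and gut mesenchyme, showed no difference past the threshold, with log2 values of 0.0014 ± 0.28 and -0.095 ± 0.29.

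Transcripts of BMP ligands, which restrain gland growth and steer epithelial differentiation, were found in the stromal-like clusters, with higher levels of 4 of them in cluster 12 than in cluster 11. The 7 genes tested in dataset 1 were *Bmp1* to *Bmp7*, of which *Bmp1* encodes a protease and not a ligand. *Bmp1* was the only 1 of them with UMIs in clusters 13 and 19. All 7 were called higher in cluster 12 than in the epithelium, 5 of 7 in cluster 11, 1 in cluster 13 and 0 in cluster 16, beside 17.4, 17.5, 14.1 and 9.89% of all genes. The counts of clusters 13 and 16 were thus near the share of all genes, and *Bmp3* had 3 UMIs in cluster 12. In dataset 2 the shares of all genes called higher were 7.4% in cluster 19 and 10.4% in cluster 18. Of the 4 tested in dataset 2, 1 was called higher in cluster 19, a call lost without pool T, and 0 in cluster 18. *Bmp5* reached 1207 and 1043 CPM in cluster 12 and 147 and 163 in cluster 11, a log2 difference of -2.83 ± 0.29, and had 1 UMI among the 308 epithelial cells of dataset 1. *Bmp4* reached 505 and 705 CPM in cluster 12 and 159.5 and 269.8 in cluster 11, a log2 difference of -1.46 ± 0.34, and was at 0 in those epithelial cells. *Bmp4* and *Bmp5* were also at 0 in clusters 13, 16, 18 and 19. The difference of *Bmp4* between clusters 11 and 12 missed the threshold without the tube1 sum of cluster 11 (log2 -1.13, edgeR adjusted p = 0.151) and with DESeq2 (adjusted p = 1). *Bmp7* was at 542 and 254 CPM in cluster 12 and at 0 in cluster 11, at least 26.6-fold lower. *Bmp2* was found in the epithelium of dataset 1 as well, at 58.6 and 56.8 CPM against 616 and 345 in cluster 12. The secreted BMP inhibitors *Grem1*, *Nog* and *Chrd* had at most 3 UMIs in any of the 6 clusters, and *Fstl1*, an activin- and BMP-binding protein, had a difference of cluster 11 minus cluster 12 that missed the threshold (0.29 ± 0.18, edgeR adjusted p = 0.505).

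Wnt ligands followed the same division. *Wnt5a*, which signals mainly outside the beta-catenin branch, had 468 and 585 CPM in cluster 12 and 49.1 and 149 in cluster 11, a log2 difference of -2.28 ± 0.50. *Wnt4* had 234 and 303 CPM in cluster 12 and 12.3 and 49.7 in cluster 11, a log2 difference of -2.94 ± 0.61. Both were called lower in cluster 11, and both calls were lost without the tube1 sum of cluster 11 (edgeR adjusted p = 0.0903 and 0.0513). Without its tube2 sum the difference was -3.43 for *Wnt5a* and -4.45 for *Wnt4*, and without the cells that held epithelial transcripts that of *Wnt4* was -5.60. That of *Wnt5a* was also lost with DESeq2 (adjusted p = 0.241). Neither gene had a UMI in clusters 13, 16, 18 or 19. *Sfrp1*, a secreted Wnt inhibitor, was likewise lower in cluster 11 (-1.43 ± 0.36), a call that was lost without its tube1 sum and without its tube2 sum (edgeR adjusted p = 0.110 and 0.179). The R-spondins *Rspo1* and *Rspo3*, which amplify Wnt signals at the gland base, had 0 UMIs in each of the 6 clusters, so they were not detectable at this depth.

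Hedgehog signals travel from the epithelium to the stroma, where *Ptch1*, *Gli1* and *Hhip* are their usual target genes. *Ptch1*, the Hedgehog receptor, was at 687 and 348 CPM in cluster 11 and 567 and 578 in cluster 12, which was 5.13 ± 0.25 and 5.37 ± 0.23 above the epithelial types on the log2 scale, and the difference between the clusters missed the threshold (-0.23 ± 0.25, edgeR adjusted p = 0.747). *Gli1*, a transcription factor of the pathway, had 6 and 10 UMIs in cluster 11 and 3 and 6 in cluster 12, and 0 in the other 4 clusters. *Hhip*, which binds and blocks the ligand, was by contrast found in cluster 11 alone among the 6, with 105 and 271 UMIs against 0 in cluster 12, at least 125.8-fold higher. Over all genes 17.5, 17.4, 14.1 and 9.89% were called higher than in the epithelium in clusters 11, 12, 13 and 16. A count of 0 among 5 genes thus lies near the share in clusters 13 and 16. Of 5 pathway genes tested, 5 were called higher than in the epithelium in cluster 11, 4 in cluster 12 (2 without its tube2 sum) and 0 in clusters 13 and 16.

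**Figure D2:**
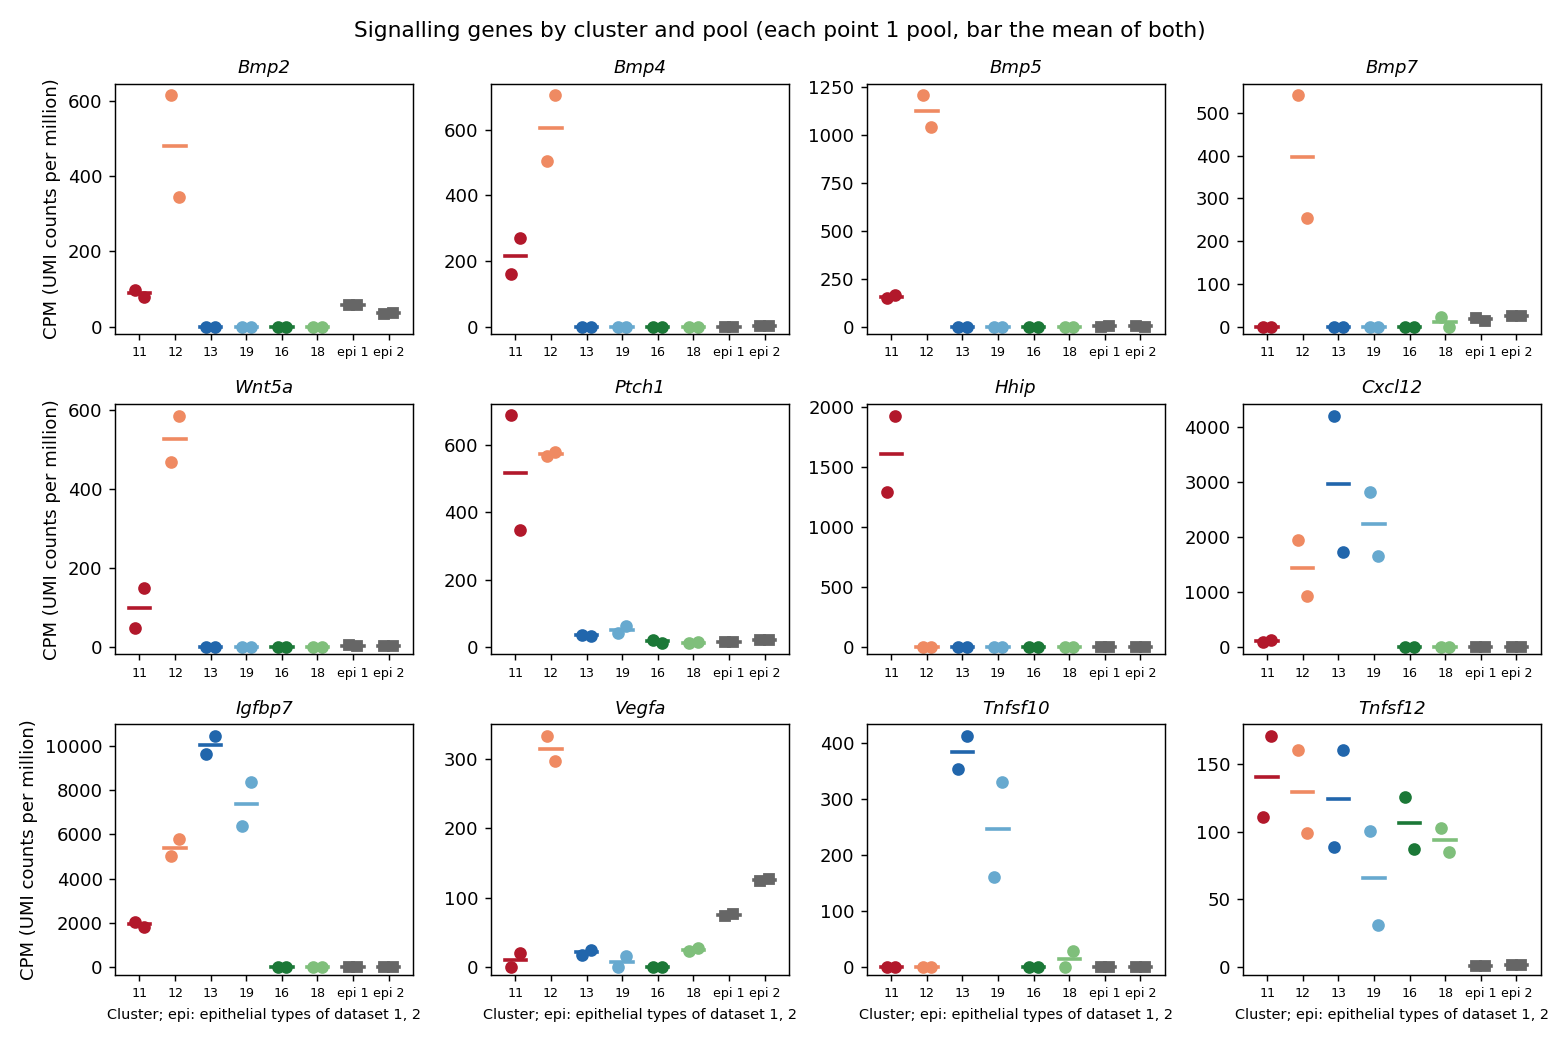
Level in CPM (vertical axis, linear, own scale per gene) of 12 signalling genes in the 6 clusters and in the epithelium of each dataset (horizontal axis). Points are the 2 pools and bars their mean. *Bmp4*, *Bmp5* and *Wnt5a* were highest in cluster 12 and next in 11, *Hhip* was found in 11, *Tnfsf10* mainly in the endothelial-like clusters 13 and 19, and *Tnfsf12* in all 6.

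Cells within the stromal-like clusters were not alike. *Rgs5*, a G protein regulator typical of pericytes, had 28 to 169 UMIs in 5 of the 18 cells and 0 or 1 in the other 13. The 5 cells also held *Notch3* (8 to 28 UMIs) and *Pdgfrb* (4 to 24 UMIs), 2 further pericyte genes, and had no *Hhip*, *Postn* or *Dcn* UMI. In 3 of them *Acta2* was at 155, 166 and 385 UMIs, and in the other 2, both from plate p30 of tube2, it was at 0 while *Abcc9*, a potassium channel subunit of pericytes, was at 22 and 23. The other 13 cells held *Acta2* (49 to 305 UMIs), *Actg2* (5 to 126 UMIs) and *Hhip* (1 to 72 UMIs) together. In cluster 12, *Pdgfra* ranged from 1 UMI in 1 cell to over 30 UMIs in 3 cells, *Acta2* was detected in 6 of 15 cells, and 1 cell stood apart with 18 *Rgs5* UMIs and 0 of *Postn*. These groups were read from single cells after their values were seen and have no test.

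**Figure D3:**
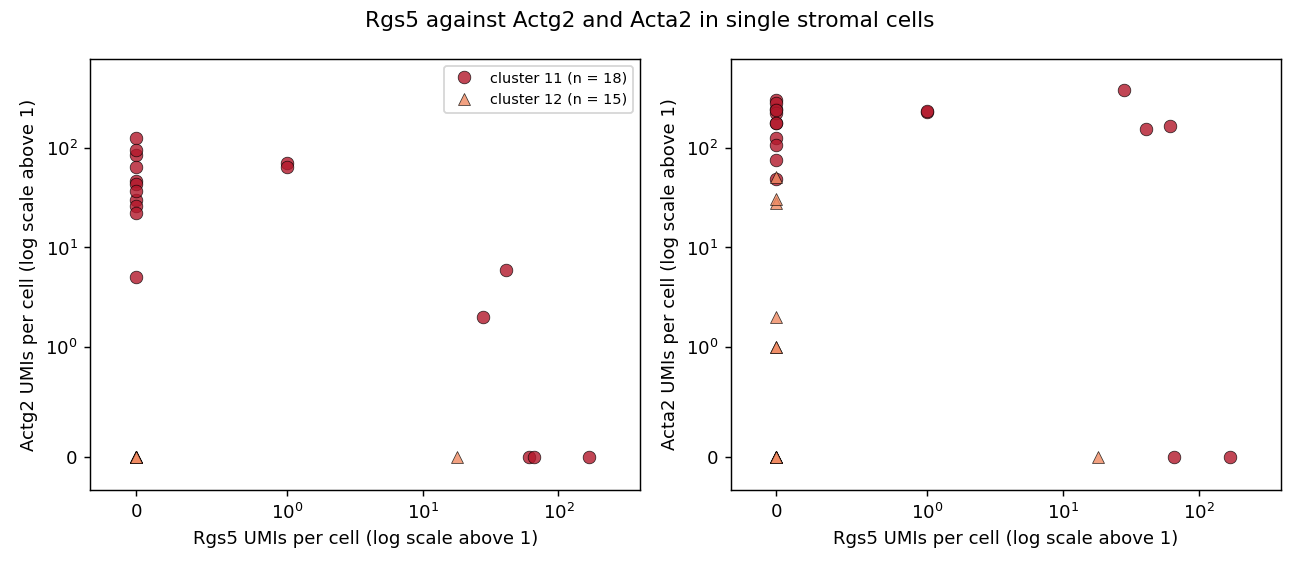
*Rgs5* UMIs (horizontal axis) against *Actg2* (left) and *Acta2* (right) UMIs (vertical axes, log scales above 1) in single cells of clusters 11 and 12. Cells of cluster 11 with 28 or more *Rgs5* UMIs had at most 6 *Actg2* UMIs, and 2 of these 5 had no *Acta2*.

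The endothelial-like clusters of both datasets shared a blood vessel program. *Kdr* and *Flt1*, the VEGF receptors, are how these cells sense VEGF. *Kdr* was at 3324 and 3061 CPM in the pools of cluster 13 and 2973 and 2269 in cluster 19, and *Flt1* at 2387 and 2582 CPM in cluster 13 and 2169 and 1434 in cluster 19. Both were at 0 in clusters 11, 12 and 16, and *Kdr* was at least 601-fold and *Flt1* at least 481-fold higher in cluster 13 than there. *Plvap*, which forms the diaphragms of fenestrated capillaries, was at 4757 and 6173 CPM in cluster 13 and 4359 and 6980.2 in cluster 19, at least 1092-fold higher in cluster 13 than in the other 3 clusters. All 8 junction and permeability genes tested were called higher against the epithelium in both clusters, with medians of 11.37 in cluster 13 against -0.38 over all genes and 12.43 in cluster 19 against -1.23. They were likewise called higher in cluster 13 than in the other 3 clusters, and lower in cluster 18 than in cluster 19, where 4.91% of all genes were higher and 3.39% lower. Of 5 lymphatic vessel markers, *Prox1* had 1 UMI in the cells of the 2 clusters and *Lyve1*, *Pdpn* and *Mmrn1* had 0. *Flt4* (VEGFR3), the receptor for VEGF-C, had 4 and 20 UMIs in the pools of cluster 13, in 11 of 15 cells, and 9 and 8 in cluster 19, in 8 of 9 cells. It was called higher in cluster 13 than in the other 3 clusters, at least 26.1-fold, and lower in cluster 18 than in cluster 19 (edgeR adjusted p = 0.0247).

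Of the genes higher than in the epithelium and tested in both datasets, 850 were shared by clusters 13 and 19. They were 54.2% of those of cluster 13 and 93.3% of those of cluster 19, where 13.9 and 8.08% of all genes tested in both were called. Cluster 13 and the leukocyte-like cluster 18 shared 451, which were 28.7 and 37.8% of each. The clusters were defined by such genes, so the overlap is a description.

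Signals between endothelium and stroma differed in level between the clusters. Of 11 VEGF and angiopoietin genes tested in dataset 1, 8 were called higher than in the epithelium in cluster 13, and of 10 in dataset 2, 7 were called higher and 1 lower in cluster 19. Over all genes 14.1% were higher in cluster 13, and 7.4% were higher and 12.1% lower in cluster 19. The single lower call of cluster 19 was thus near the share of all genes. The calls of cluster 13 fell from 8 to 5 without the tube2 sum of cluster 13 and to 4 with DESeq2, and those of cluster 19 fell from 8 to 4 without its T sum. Of Notch receptors and ligands the counts were 5 of 8 and 5 of 7, the latter 3 without the T sum. *Pdgfb*, the growth factor that recruits pericytes, was at 849 and 656 CPM in cluster 13 and 422 and 189 in cluster 19, which was 4.60 ± 0.48 above the epithelial types in dataset 2 (3.94 without the K sum). It was also found in the leukocyte-like clusters, with 12 and 8 UMIs in the pools of cluster 16 and 11 and 9 in those of cluster 18, and the difference of cluster 18 minus cluster 19 missed the threshold (-1.21 ± 0.52, edgeR adjusted p = 0.20). Its receptor *Pdgfrb* was at 0 in both and had 221 and 376 CPM in cluster 11 and 160.1 and 254 in cluster 12. *Notch1* was higher than in the epithelium in both endothelial-like clusters, by 4.33 ± 0.27 and 2.98 ± 0.41, and its ligand *Dll4*, the Notch ligand of sprouting vessels, had 21 and 26 UMIs in the pools of cluster 13 and 5 and 6 in cluster 19. In dataset 1 *Dll4* was at 0 in clusters 11, 12 and 16, at least 51.2-fold lower than in cluster 13. *Vegfa*, the main VEGF ligand, had 1 and 3 UMIs in cluster 13 and 333 and 296 CPM in cluster 12, and was called higher in cluster 12 than in the epithelial types, by 2.704 ± 0.264. *Cxcl12*, a chemokine that retains leukocytes and progenitors, was at 4209 and 1732 CPM in cluster 13, 2812 and 1654 in cluster 19 and 1946 and 930.4 in cluster 12, and at 0 in both leukocyte-like clusters. The insulin-like growth factor binding protein *Igfbp7* was at 9637 and 10428 CPM in cluster 13, 6387 and 8367 in cluster 19, 5013 and 5773 in cluster 12, 2062 and 1818 in cluster 11 and 0 in clusters 16 and 18. Of 7 IGF ligands and binding proteins tested in dataset 1, 5 were called higher than in the epithelium in cluster 11, 6 in cluster 12, 4 in cluster 13 and 2 in cluster 16, beside 17.5, 17.4, 14.1 and 9.89% of all genes. Of the transcription factors, *Sox18*, which acts in vessel formation, had UMIs in 15 of 15 and 9 of 9 cells and in none of the other 4 clusters. *Foxf1* had UMIs in 10 of 15 cells of cluster 13, besides 15 of 18 of cluster 11 and 14 of 15 of cluster 12.

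A few endothelial-like cells differed from the rest. *Gpihbp1*, which anchors lipoprotein lipase to capillary walls, had UMIs in 13 of 15 and 8 of 9 cells. The 3 cells without it were the ones with *Vegfc*, a lymphatic growth factor, at 7, 6 and 5 UMIs. The other 21 cells had 3 to 33 *Gpihbp1* UMIs and no *Vegfc*. *Esm1*, a secreted proteoglycan induced by VEGF, ranged from 0 to 88 UMIs across cluster 13. One cell of cluster 13, from tube1, held 32 *Rgs5* UMIs.

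The leukocyte-like clusters were led by macrophage genes. *C1qa*, *C1qb* and *C1qc* encode the chains of complement C1q, and *C1qa* reached 3288 and 3789 CPM in cluster 16 and 3534 and 2307 in cluster 18. It was at 0 in clusters 11, 12, 13 and 19, at least 745-fold higher in cluster 16 than in the other 3 of its dataset and at least 113-fold lower in cluster 19 than in cluster 18. *Apoe*, a lipid carrier made by macrophages, was at 24437 and 21556 CPM in cluster 16 and 25111 and 22310.2 in cluster 18. On the log2 scale it was 8.52 ± 0.22 above the other 3 clusters in dataset 1 and 9.07 ± 0.30 above cluster 19 in dataset 2 (7.64 without the cells that held epithelial transcripts). *Csf1r*, the receptor for the macrophage growth factor, was at 2638 and 2276 CPM in cluster 16 and 2199.9 and 793 in cluster 18. All 9 complement and phagocytosis genes tested were called higher against the epithelium in both clusters, with medians of 12.50 (12.33 with bounds) and 14.74 against -0.68 and -0.76 over all genes. Without the 5 cells of cluster 18 that held epithelial transcripts, 3 of these genes were called in that cluster. All 9 were also called higher in cluster 16 than in the other 3 clusters. Of the genes higher than in the epithelium, clusters 16 and 18 shared 824, 72.9 and 69.1% of each, where 10.02 and 10.58% of all genes tested in both were called. The fibroblast and endothelial genes *Pdgfra*, *Cdh5* and *Kdr* were at 0 in these 21 cells. Others of these lists had a few UMIs, with 1 each of *Pecam1*, *Col1a1* and *Col3a1* in cluster 16 and again in cluster 18.

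The motif GAGGAAGT, a form of the element bound by PU.1, the myeloid transcription factor, was searched on both strands in the same promoters and was present in 3.20% of all. It was present in 2 of 9 promoters of the complement and phagocytosis list, in 1 of 4 of the macrophage list and in 0 of 5 each of the leukocyte and MHC class II lists. The C1qc match is shown because *C1qc* was among the leading genes of both leukocyte-like clusters. Its window lies before the gene start on the minus strand at chr4:136893057-136893154, and the capitals mark the reverse complement of the motif, whose first base is 195 bases before the start.

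C1qc: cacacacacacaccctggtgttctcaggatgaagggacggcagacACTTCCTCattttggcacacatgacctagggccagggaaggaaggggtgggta

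Antigen presentation genes were high in both. *Cd74*, the class II invariant chain, was at 6679.9 and 19993 CPM in cluster 16 and 24496 and 21588 in cluster 18, and *H2-Aa*, a class II chain, at 4209 and 10665 CPM in cluster 16 and 10509.5 and 11693 in cluster 18. Tube1 was lower than tube2 for both genes in cluster 16, and both pools lay far above the epithelium, where *H2-Aa* was at most 2.57 CPM in dataset 1. All 7 class II genes were called higher against the epithelium in clusters 16 and 18, with medians of 13.08 and 13.58, and 6 of 7 were called higher in cluster 18 than in cluster 19. Over all genes 9.89, 10.4 and 4.91% were called higher in these comparisons.

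Cell by cell, 7 of 8 cells of cluster 16 and 7 of 13 of cluster 18 held 10 or more *C1qa* UMIs, and the rest held 0. *Cd4*, which mouse gut macrophages also carry, had UMIs in 7 of the 7 C1q cells of cluster 16 and 6 of the 7 of cluster 18. Cells without C1q were of several kinds. The 1 in cluster 16 held 18 UMIs of *Itgax* (CD11c), 18 of *Cd209a* and 6 of *Flt3*, genes of dendritic cells, with 283 of *H2-Ab1* and 6 of *Epcam*. In cluster 18, 2 such cells held 18 and 17 *Itgax* UMIs with 188 and 462 of *H2-Ab1*, and the latter also held 20 of *Xcr1*, 8 of *Flt3* and 13 of *Itgae*, a dendritic cell pattern, with 9 of *Epcam*. A further cell held 303 *Lyz2* and 19 *Csf1r* UMIs with 5 of *H2-Ab1*. The last 3 had no *H2-Ab1*, *Csf1r* or *Lyz2* and held 2 to 8 UMIs of *Gata3*, a lymphoid transcription factor. In 2 of these *Il1rl1*, the receptor for IL-33 on innate lymphoid cells, was at 2 and 3 UMIs. The other held 8 of *Lck*, 9 of *Cd7* and 2 of *Ncr1*, genes of natural killer and T cells, with 33 of *Ccl3*. Neither *Il1rl1* nor *Ccl3* was limited to these cells. In cluster 12, 1 cell held 20 *Il1rl1* UMIs, and a C1q cell of cluster 16 held 41 of *Ccl3*. Each of these kinds rests on 1 to 3 cells, and doublets were not called.

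**Figure D4:**
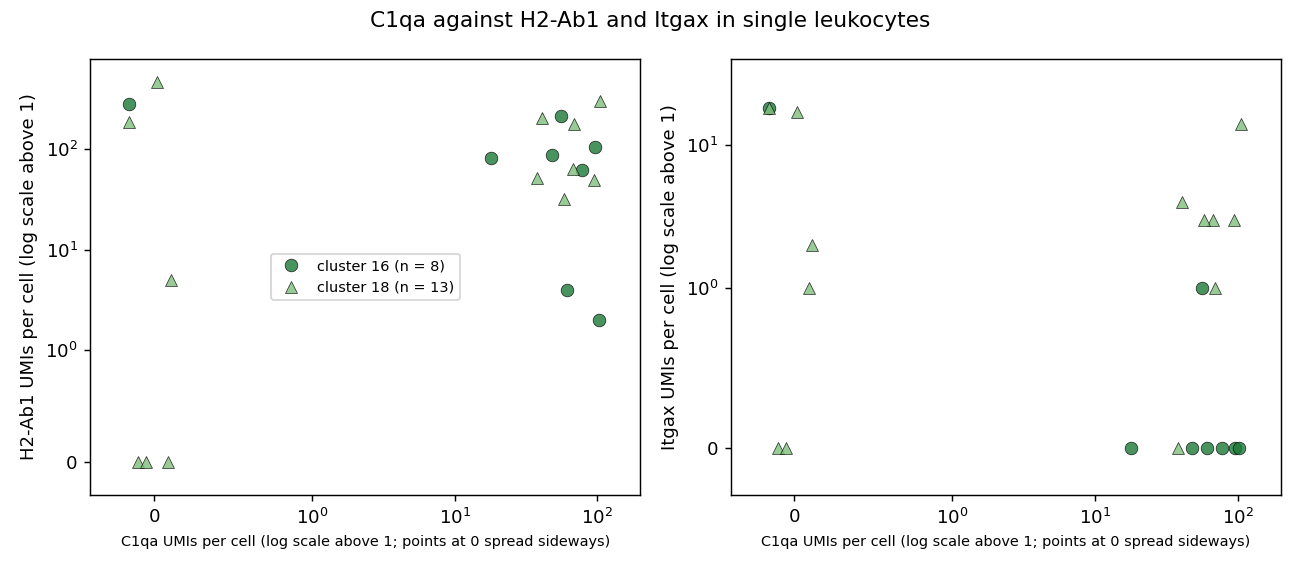
*C1qa* UMIs (horizontal axis) against *H2-Ab1* (left) and *Itgax* (right) UMIs (vertical axes) in single cells of clusters 16 and 18, on log scales above 1 with points at 0 spread sideways. C1q cells had 18 to 105 *C1qa* UMIs, and the 7 cells at 0 ranged from 0 to 462 *H2-Ab1* UMIs.

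Cytokines of the TNF family differed by cell type. *Tnf*, the inflammatory founder of the family, had UMIs in 6 of 8 cells of cluster 16 and 9 of 13 of cluster 18 and in no other member cell, with 6 and 4 UMIs in the pools of cluster 16 and 15 and 14 in those of cluster 18, and passed the test against the epithelium in both. *Tnfsf10* (TRAIL), a death ligand, had UMIs in 15 of 15 and 9 of 9 endothelial-like cells, at 354 and 412 CPM in cluster 13 and 161 and 331 in cluster 19, and was at least 75.1-fold higher in cluster 13 than in the other 3 clusters. *Tnfsf12* (TWEAK), which acts on epithelium and vessels, was by contrast present in all 6 clusters, with 110.4 and 170.4 CPM in cluster 11 and 100.4 and 31.5 in cluster 19, against 0.638 and 1.07 in the epithelium of dataset 1 and 1.96 and 1.80 in that of dataset 2. It was called higher than the epithelium in each cluster, by 6.74 ± 0.60 in cluster 18 (5.43 without the cells that held epithelial transcripts) and 6.14 ± 0.84 in cluster 19 (5.14 without the K sum and 6.78 without T). Of 3 comparisons among the clusters none passed the test, with 0.24 ± 0.49 for cluster 11 minus 12, 0.12 ± 0.44 for 13 minus the other 3 and 0.60 ± 0.63 for 18 minus 19. The receptor *Tnfrsf1a* was higher than in the epithelium in all 6, by 1.499 ± 0.227 in cluster 11 to 1.99 ± 0.22 in cluster 13, though the calls of clusters 18 and 19 were lost without the cells that held epithelial transcripts (edgeR adjusted p = 0.239 and 0.179) and that of cluster 19 also without pool T (adjusted p = 0.201).

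Chemokines of the leukocyte-like clusters included *Ccl3* and *Ccl4*, which draw monocytes and T cells. *Ccl3* had 52 and 58 UMIs in the pools of cluster 18 and 0 and 50 in those of cluster 16, and *Ccl4* had 23 and 96 in cluster 18 and 2 and 28 in cluster 16. Nearly all of those in cluster 16 were in tube2. *Il1b*, a cytokine of activated myeloid cells, had 2 and 151 UMIs in cluster 16, 108 of them in the cell without C1q, and 247 and 165 in cluster 18. *Cxcl16* was above the epithelial types by 4.73 ± 0.31 in cluster 16 and 5.77 ± 0.38 in cluster 18 (4.76 without the cells that held epithelial transcripts). Other chemokines were found in cluster 12. *Ccl11* (eotaxin) had 165 and 65 UMIs there, of which 137 came from 1 cell, and 0 in the other 5 clusters. *Ccl7*, which attracts monocytes, had 144 and 5 UMIs there, in 3 of 15 cells, and 5 and 18 in cluster 16, in 4 of 8 cells, so that in tube2 cluster 16 was the higher, at 225 CPM against 35.2. Of 12 chemokines tested in dataset 1, 8 were called higher than the epithelium in cluster 12, 7 in cluster 16, 3 in cluster 13 and 2 in cluster 11, where 1 was called lower, beside 17.4, 9.89, 14.1 and 17.5% of all genes. The count of cluster 11 was thus near that of all genes. Without tube2 sums the calls were 4 in cluster 16 and 1 in cluster 11, and with DESeq2 they were 4 in cluster 12, 2 in cluster 16 and 1 in cluster 11.

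Growth factors of the epidermal growth factor family, which bind EGFR on gland cells, had few UMIs in these cells. *Tgfa* had 0 UMIs in all 6 clusters, against 65.3 and 65.4 CPM in the epithelium of dataset 1 and 28.01 and 29.82 in that of dataset 2, and *Areg* had 2 and 2 UMIs in cluster 18 and 0 in the others. *Ereg* was the exception, with 32 and 5 UMIs in 8 of 15 cells of cluster 12, 3 UMIs in cluster 11 and 0 in the epithelium of dataset 1. *Igf1*, a survival and growth factor, was found in all 6 clusters and was called higher in cluster 16 than in the other 3 (1.31 ± 0.31), a call that was lost without the tube1 sum of cluster 16 (log2 0.81, edgeR adjusted p = 0.286).

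Immediate early and heat shock genes, which respond to stress and to tissue dissociation, differed in level between the clusters. *Fos* was at 2827 and 3226 CPM in cluster 16 and 1391 and 1189 in cluster 18, while cluster 12 held 0 and 1 UMIs and cluster 19 1 and 0. Against the epithelial types *Fos* differed by 3.01 ± 0.24 on the log2 scale in cluster 16 and was called lower in cluster 12. In cluster 18 it differed by 1.11 ± 0.26, a call lost without the K sum (log2 0.95, edgeR adjusted p = 0.166). *Hspa1a*, a heat shock chaperone, was higher than in the epithelium by 3.12 ± 0.44 in cluster 16 (2.28 without tube1), 2.58 ± 0.38 in cluster 18 and 2.92 ± 0.37 in cluster 11. Of the 11 genes, 8 were called higher and 0 lower in cluster 16, 6 and 0 in cluster 18, 4 and 1 in cluster 11, 3 and 1 in cluster 13, 0 and 4 in cluster 12 and 0 and 1 in cluster 19. Over all genes 9.89% were higher in cluster 16, 10.4% in cluster 18, 17.5% in cluster 11 and 14.1% in cluster 13, and 16.4% were lower in cluster 12 and 12.1% in cluster 19, so that the single lower call of cluster 19 was near the share of all genes. With the pool as a block the calls in both directions were 8 instead of 5 in cluster 11 and 6 instead of 1 in cluster 19, and with no filter on low counts they were 9 in cluster 11, 7 each in clusters 12 and 13 and 10 in cluster 19. DESeq2 gave 7 in cluster 19. With 1 pool sum left out they were 2 in cluster 11 without tube2, 2 and 0 in cluster 13 without tube1 and tube2, and 3 in cluster 18 without K. The 7 proliferation genes tested missed the threshold in every comparison with the epithelium, and *Mki67* had 2 UMIs in the 78 cells, both in cluster 16.

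For the clusters used here the authors kept wells with at least 2500 detected genes. The 78 cells held from 2532 up, with cluster medians of 3157 to 4108. In a separate analysis of types other than the main epithelial ones, the paper combined both datasets and set the minimum at 0.5 times that of 2500. Marker lists were also counted here in wells that fell short of 2500 detected genes but reached 0.5 times that number. In dataset 2, 13 of 85 such wells held 2 or more endothelial genes (15.3%, 95% Wilson interval 9.16 to 24.4%) against 34 of 3993 wells at the minimum or above (0.851%). For leukocyte genes the counts were 7 of 85 (8.24%, 4.05 to 16.0%) and 13 of 3993 (0.326%), the latter all members. For *Pdgfra*+ stromal genes they were 4 of 85 (4.71%, 1.85 to 11.5%) and 12 of 3993 (0.301%). Among 702 parietal cells of dataset 2, which should lack these genes, 0.997% held 2 or more endothelial genes and 0 held 2 or more of either other list, which allows a share of up to 0.427%. Parietal cells were deeper, with a median of 47647 UMIs against 4311 in the wells under the minimum. In dataset 1 the shares under the minimum were 8.79% for endothelial, 2.20% for leukocyte and 3.30% for *Pdgfra*+ stromal genes of 91 wells, with intervals that overlapped those at the minimum or above. Among 57 parietal cells of dataset 1, 3.51% held 2 or more endothelial genes, as many 2 or more *Pdgfra*+ stromal genes, and 0 held 2 or more leukocyte genes, which allows a share of up to 5.26%. The *Pdgfra*+ stromal share under the minimum was thus no higher than this background. Intervals cover counting error only, and a well with fewer genes need not hold an intact cell.

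**Figure D5:**
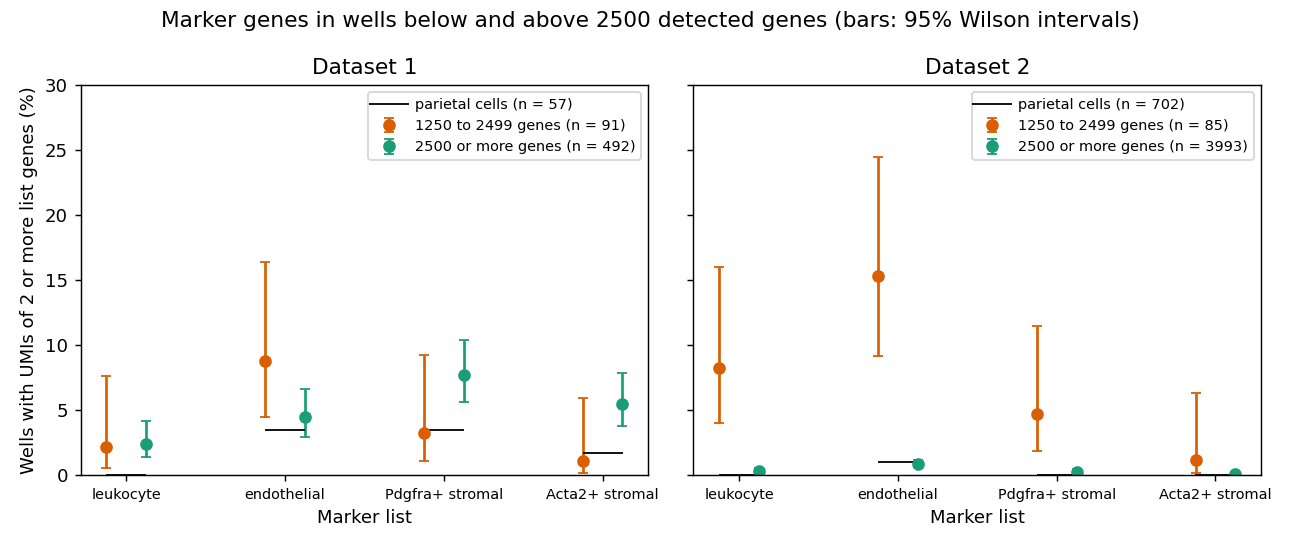
Percent of wells with UMIs of 2 or more genes of a marker list (vertical axis) by list (horizontal axis), for wells under 2500 detected genes, down to 0.5 times that number, and for wells with 2500 or more, with 95% Wilson intervals and with a black line for parietal cells. The *Acta2*+ list was added after the data were seen. In dataset 2 the shares under the minimum were 15.3% for endothelial and 8.24% for leukocyte genes, above those of kept wells.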

How the data were processed

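Single cells were sequenced by Quartz-Seq2 on 18 plates of 384 wells, 6 in dataset 1 and 12 in dataset 2. The authors demultiplexed the reads with bcl2fastq 2.20.0.422 and made the deposited count tables by aligning them to GRCm39 with STAR, with FASTX-Toolkit and Drop-seq tools for barcodes and Gencode M27 for genes. These are unnormalized UMI counts of each gene name in all 6912 wells. The authors also deposited an annotation made with Seurat, with the cluster, pool, phase and percent of mitochondrial UMIs of each of the 4484 kept cells. The 4484 columns of the pooled count tables were not used, since the same cells were taken from the plates, and in all 4484 the totals were equal in both. Sorting used a singlet gate and no doublet caller was run.

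For every cluster the UMIs of its cells in a pool were added up, and member sums held 27776 to 127980 UMIs before the filter on genes. They were tested in edgeR 4.0.16 (R 4.3.3) by the quasi-likelihood test (glmQLFTest) after filterByExpr and TMM, with 1 fit per dataset, of 22 sums in dataset 1 (11 degrees of freedom left) and 16 in dataset 2 (8 left). A cluster was compared with the mean of the epithelial types on the log2 scale, with the mean of the other 3 clusters of dataset 1, or with 1 other cluster, in 12 comparisons. A gene was called at a Benjamini-Hochberg adjusted p under 0.05 over all genes tested. A log2 difference is printed with its standard error only where each sum of both groups held a UMI. Where all sums of 1 group were at 0, the fold is a lower bound against 3 UMIs over that group. CPM are UMIs per 1000000 UMIs of the genes that passed the filter, divided by the TMM factor of each sum. These factors ran from 0.72 to 1.47 in dataset 1 and from 0.60 to 1.82 in dataset 2. CPM of the epithelium are the mean over its types in a pool. The steps were tested on simulated data.

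The members, gene lists and tests were chosen with earlier results of these data known. Members of the lists could be named, besides the 10 largest rises of each cluster against the epithelium and the 4 largest rises and falls between clusters among calls that had 10 UMIs or more in each pool. Genes of single cells were chosen after seeing the data. The pools pair the sums, since the cells of a pool came from the same mice. The deviations of pools correlated between -0.027 and 0.044 over 55 pairs of types in dataset 1 and between -0.0087 and 0.424 over 28 pairs in dataset 2. Alternatives were DESeq2 1.42.0 and its size factors, no filter on low counts, the pool as a block, each pool sum left out, and member cells with 2 or more epithelial genes left out. A fit on the member clusters alone and the *Acta2*+ list for wells were added after seeing the data. *Cldn5*, *Wnt2b*, *Rspo2* and *Nrg1* were not analysed here. Promoter sequences were those of RefSeq on GRCm38.p6, another build than that of the counts, and were matched by symbol.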

Additional observations from a re-analysis of the deposited data

Results flagged for a closer look

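Leukocyte, endothelial and *Pdgfra*+ stromal genes appeared in wells that no comparison made here used. The paper itself did use wells of this depth. For types other than the main epithelial ones it combined both datasets, with a minimum at 0.5 times 2500 detected genes. It reports stromal, endothelial and leukocyte clusters there, and found each type except G cells in both datasets. In dataset 2, of the wells that missed the minimum of 2500 detected genes but reached 0.5 times that number, 8.24% held 2 or more leukocyte genes, 15.3% held 2 or more endothelial genes and 4.71% held 2 or more *Pdgfra*+ stromal genes, against 0%, 0.997% and 0% of parietal cells. *Pdgfra* itself had UMIs in 10 wells of dataset 2, of which 0 were member cells, 7 were other kept cells and 3 were not kept. *Ptprc* had UMIs in 39 wells, of which 13 were members, 15 other kept cells and 11 not kept.

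T cell receptor genes appeared outside the 6 clusters. In dataset 1, 2 cells of cluster 14 on plate p31 held 61 and 40 UMIs of *Cd3e*, *Cd3d* and *Cd3g* together, at depths of 5391 and 5589 UMIs. These genes were at 0 in the 78 member cells. Of the 12 cells of cluster 14, *Ptprc* had UMIs in 9, and the tuft cell genes *Pou2f3* and *Trpm5* in 8 each.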

How the results depend on the processing

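Over 12 counts of called genes and 59 differences of single genes, DESeq2, its size factors, no filter on low counts and the pool as replicate block moved no count by over 1.5 times. The block ended no call of a named gene, and the printed list counts it moved by over 1.5 times stand beside their results. Left out one at a time, pool sums gave 2260 to 3135 calls (4131 with all) for cluster 11 against the epithelium, 2239 to 3138 (4067) for 12, 1740 to 2894 (3605) for 13, 1502 to 2076 (2934) for 16, 1557 to 1950 (2957) for 18 and 1168 to 1483 (2513) for 19. Against the other 3 clusters they gave 553 to 989 (1202) for 11, 509 to 772 (1020) for 12, 483 to 899 (1074) for 13 and 521 to 932 (1349) for 16. For 11 against 12 they gave 328 to 493 (678), and for 18 against 19, 723 to 839 (1070). In dataset 1 the lowest counts were those without tube2. A cluster with 1 sum was assumed to vary like the others. Without cells that held epithelial transcripts the count was 1912 for 18 against the epithelium and 374 for 18 against 19. The fit on member clusters alone gave 695 for 11 and 633 for 12 against the others, and 641 for 18 against 19. The cause of these moves was not tested beyond the fewer sums and cells.

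With 3 marker genes, wells at or above the gene minimum held 3.66% *Acta2*+ in dataset 1 (5.49% with 2 genes) and 0.250% endothelial and 0.150% *Pdgfra*+ in dataset 2 (0.851 and 0.301%). Under it they held 1.10% *Pdgfra*+ in dataset 1 (3.30%) and 0% *Acta2*+ in dataset 2 (1.18%).

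Reversed signs were found only for differences that missed the threshold. With pool sums of cluster 11 left out, the log2 difference of 11 against 12 was -0.17 to 0.52 for *Tnfsf12* (0.24 with all), -0.66 to 0.26 for *Ptch1* (-0.23) and -0.40 to 0.31 for *Barx1* (0.0014), each turned without tube2. *Barx1* was -0.0082 with the pool as block, -0.12 without cells with epithelial transcripts and -0.0064 in the fit on member clusters. *Tnfsf12* was -0.58 without tube2 of 13 and 0.40 without tube1 for 13 against the others (0.12), and turned to -0.61 for 18 against 19 without cells with epithelial transcripts (0.60). Depth limits genes with few UMIs, and a gene at 0 in a cluster may be present under 3 UMIs over its cells.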
